A study of Homo sapiens with 6 samples.

Results

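The circadian clock genes were taken as 10 genes, chosen by symbol: the period genes PER1, PER2 and PER3, the cryptochrome genes CRY1 and CRY2, the activator genes ARNTL and CLOCK, the nuclear receptor genes NR1D1 and NR1D2, and the output regulator DBP. All 10 were among the 21134 genes of the series table, and all 10 were among the 14926 genes that passed the filter on low counts and were tested. They were measured by RNA sequencing in cardiomyocytes differentiated from human pluripotent stem cells (hiPSC-CMs) of 1 line, H9. H9 was derived from a human embryo, although the sample labels name the cells as induced pluripotent. Untreated cells were the control (2 libraries), the alcohol group received 100 mM alcohol for 24 h (2 libraries), and the alcohol plus losartan group received 100 mM alcohol together with 1 µM losartan for 24 h (2 libraries). Losartan blocks AT1R, the receptor of angiotensin II, and no library of losartan without alcohol was analysed here. The labels and the methods of the study describe co-treatment with losartan, and its results use both that word and pretreatment. The comparisons asked whether alcohol changed expression in these cells and whether blocking AT1R altered that response.

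The circadian clock is a feedback loop of transcription that runs in most cells of the body, cardiomyocytes included. ARNTL (also called BMAL1) and CLOCK form a pair that binds E-box sequences and activates PER and CRY genes, and the PER and CRY proteins return to the nucleus and inhibit that pair. In a second loop NR1D1 and NR1D2 repress ARNTL through ROR elements, which the ROR receptors activate, and DBP acts on D-box sequences of output genes. In the heart the loop is known for daily rhythms of metabolism and of ion channel expression. The labels give no clock time of harvest. They give 1 time point, 24 h, for both treated groups and no time for control. A shift of phase, a different time of harvest and a change of mean level therefore cannot be told apart here. Nor can a smaller number of cells of a type be told apart from less RNA per cell in such bulk samples.

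The starts of the genes are shown first, because the loop works through words in their promoters. All 10 genes were matched in RefSeq (GRCh38.p14), ARNTL under its newer symbol BMAL1, with 15 start windows between them of 250 bases before and 50 after a transcription start. The 4 stretches shown belong to the genes whose level differed from control at an unadjusted p under 0.05 in alcohol plus losartan; each runs 5′ to 3′ on the strand of the gene and covers the 250 bases before a start. Capitals mark the words that were searched on both strands. Where a gene had several windows, the one with the most such words before its start is shown. The E-box, the site of the ARNTL and CLOCK pair, was read as CACGTG. Its weaker variant, the E-prime box, was read as CACGTT. The D-box, the site of DBP and its relatives, was read as TTANGNAA. The ROR element, the site of the ROR and NR1D receptors, was read as TAGGTNA.
PER3, chr1:7784041-7784290, plus strand: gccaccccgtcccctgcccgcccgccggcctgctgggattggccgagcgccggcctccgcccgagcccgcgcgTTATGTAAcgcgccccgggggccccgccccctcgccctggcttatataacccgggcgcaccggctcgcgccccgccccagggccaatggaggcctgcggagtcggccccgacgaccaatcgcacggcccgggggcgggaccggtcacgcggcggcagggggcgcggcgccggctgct
NR1D2, second start, chr3:23945871-23946120, plus strand: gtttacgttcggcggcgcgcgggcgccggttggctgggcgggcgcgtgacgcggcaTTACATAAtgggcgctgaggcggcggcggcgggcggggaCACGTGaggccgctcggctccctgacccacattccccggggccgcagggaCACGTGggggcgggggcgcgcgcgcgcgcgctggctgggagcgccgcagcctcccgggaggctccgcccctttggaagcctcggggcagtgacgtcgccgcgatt
CRY2, second start, chr11:45847225-45847474, plus strand: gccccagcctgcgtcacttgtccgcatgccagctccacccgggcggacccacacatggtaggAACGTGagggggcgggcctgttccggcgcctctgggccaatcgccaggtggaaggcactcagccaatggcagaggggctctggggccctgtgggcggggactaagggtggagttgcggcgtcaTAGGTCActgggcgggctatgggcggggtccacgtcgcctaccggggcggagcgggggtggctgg
CRY1, chr12:107093550-107093799, minus strand: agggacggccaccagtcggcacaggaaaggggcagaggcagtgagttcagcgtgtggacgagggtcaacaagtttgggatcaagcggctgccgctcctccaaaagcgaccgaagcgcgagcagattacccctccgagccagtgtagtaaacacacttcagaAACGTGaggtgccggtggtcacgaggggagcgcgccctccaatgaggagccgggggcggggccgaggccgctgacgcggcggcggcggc

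Among all 35116 start windows of RefSeq, 7.26% held the E-box, 5.34% the E-prime box, 10.2% the D-box and 6.52% the ROR element. NR1D2 held 2 E-boxes, with first bases 155 and 105 bases before its second start, and a D-box at -194. PER1 held an E-box at -173 and a D-box at -30, and no other member held the E-box itself. The E-prime box lay in the windows of 5 members (PER2 at -197, CRY1 at -89, CRY2 at -188, CLOCK at -187 and NR1D1 at -168), and the D-box in those of 5 (PER1, PER2, PER3, ARNTL and NR1D2). In PER3 the D-box at -177 was the only word found. The ROR element was found in CRY2, at -65, and in ARNTL, at -6 and 31, the only member with more than 1. No word overlapped another in the members' windows. Of the 15 windows 6 held none of the words: the only one of DBP, the first of CRY2, ARNTL and NR1D2, and the second of PER3 and CLOCK. Counted by window, as the shares over RefSeq are, the E-box was in 2 of 15, the E-prime box in 5, the D-box in 5 and the ROR element in 2. These matches describe the letters of a short window and are no evidence of binding in these cells.

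**Figure D1:**
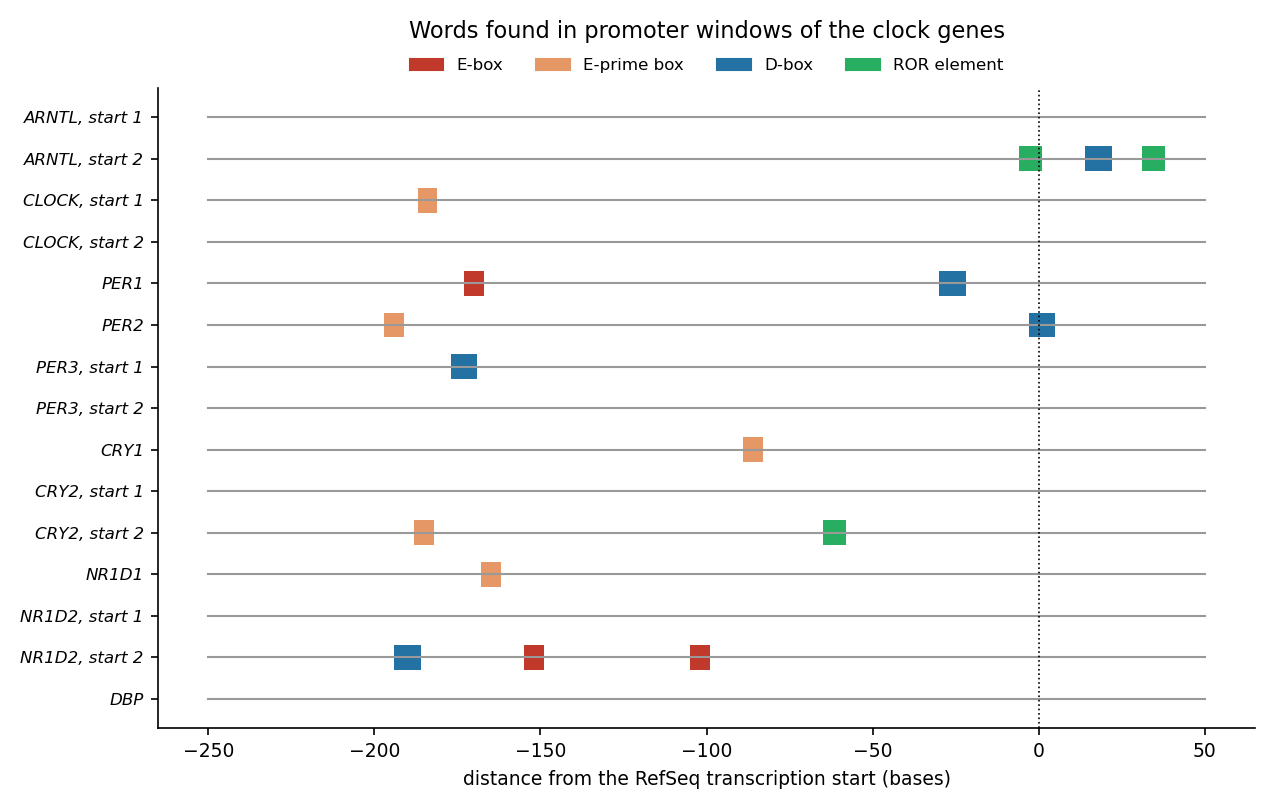
Words of the clock loop in the RefSeq start windows of the 10 members. The x axis is the distance in bases from the transcription start and each row is 1 start window; boxes mark the word by colour. NR1D2 is the only member with 2 E-boxes, ARNTL the only one with 2 ROR elements, and DBP has no box.

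The cells carried the RNA of cardiomyocytes. All 9 cardiomyocyte markers were tested, and TNNT2, cardiac troponin T, lay between 3194 and 3728 FPKM (expected counts scaled to gene length and library size). Libraries summed to between 4898287 and 5051448 expected counts, which puts a floor of 3 counts at 0.594 to 0.612 CPM (counts scaled to library size). Some marker sums moved with the groups. The summed FPKM of the cardiomyocyte markers was 27980 and 28930 in control, 26270 and 19570 in alcohol, and 22400 and 24960 in alcohol plus losartan. Every treated library lay below control. The largest part of this sum was MYL7, at 14512 and 16180, 12612 and 9321, and 10240 and 11847 FPKM in the same order. NPPA was also lower, at 3622 and 4799, 2965 and 2363, and 2375 and 2966 FPKM. The 9 markers did not move together. In alcohol against control 4 were higher and 5 lower, and in alcohol plus losartan against control 3 were higher and 6 lower. The summed FPKM of 4 smooth muscle markers was 1926 and 1689 in control, 1451 and 722.3 in alcohol, and 991.4 and 1036 in alcohol plus losartan. It was again below control in every treated library.

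The endothelial, endoderm and fibroblast sums were higher in every treated library than in control. Endothelial markers (4 genes) summed to 4.92 and 4.65 FPKM in control, 6.16 and 7.43 in alcohol, and 7.97 and 8.96 in alcohol plus losartan. Most of this sum was KDR, at 4.00 and 3.70, 5.18 and 6.53, and 6.67 and 7.70 FPKM, while PECAM1 stayed between 0.44 and 0.76 and VWF was at 0.11 or lower, with 0 in alcohol plus losartan replicate 1. Endoderm markers (4 genes) summed to 38.3 and 36.7 in control, 49.3 and 49.2 in alcohol, and 46.6 and 47.8 in alcohol plus losartan. Fibroblast markers (7 genes) summed to 465.1 and 420.6 FPKM in control, 514.8 and 481.4 in alcohol, and 517.4 and 466.5 in alcohol plus losartan. The sum of 4 pluripotency markers was 9.08 to 16.1 FPKM, and control and treated libraries overlapped. SOX2 was listed at 0 in replicate 2 of both treated groups. The sum of 13 hypoxia-response genes was lower in every treated library than in control. It was 2642 and 2268 in control, 1703 and 854.7 in alcohol, and 2139 and 1892 in alcohol plus losartan. The part of these markers in the results on the clock genes was not tested.

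The members differed widely in level. CRY2 was the highest, at a mean of 39.1 FPKM over the 6 libraries. This was above 92.0% of the genes with an FPKM above 0 in any library. NR1D2 (15.0 FPKM), CLOCK (10.9) and CRY1 (10.1) followed, and their ranges overlapped, so that their order is not fixed beyond the spread between libraries. PER1 came next at 7.80 FPKM, between 6.89 and 9.92, and reached into the range of CRY1. PER3 (2.55), DBP (2.53), NR1D1 (2.41) and PER2 (2.30) lay close together with overlapping ranges. ARNTL had the lowest mean, 1.24 FPKM, and its range of 0.75 to 1.60 lay below those of PER2 and DBP but overlapped those of PER3 and NR1D1. The counts behind ARNTL (11 to 22 per library), DBP (16 to 37) and NR1D1 (17 to 43) were small, whereas CRY2 rested on 651 to 1032 and CLOCK on 502 to 653.

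**Figure D2:**
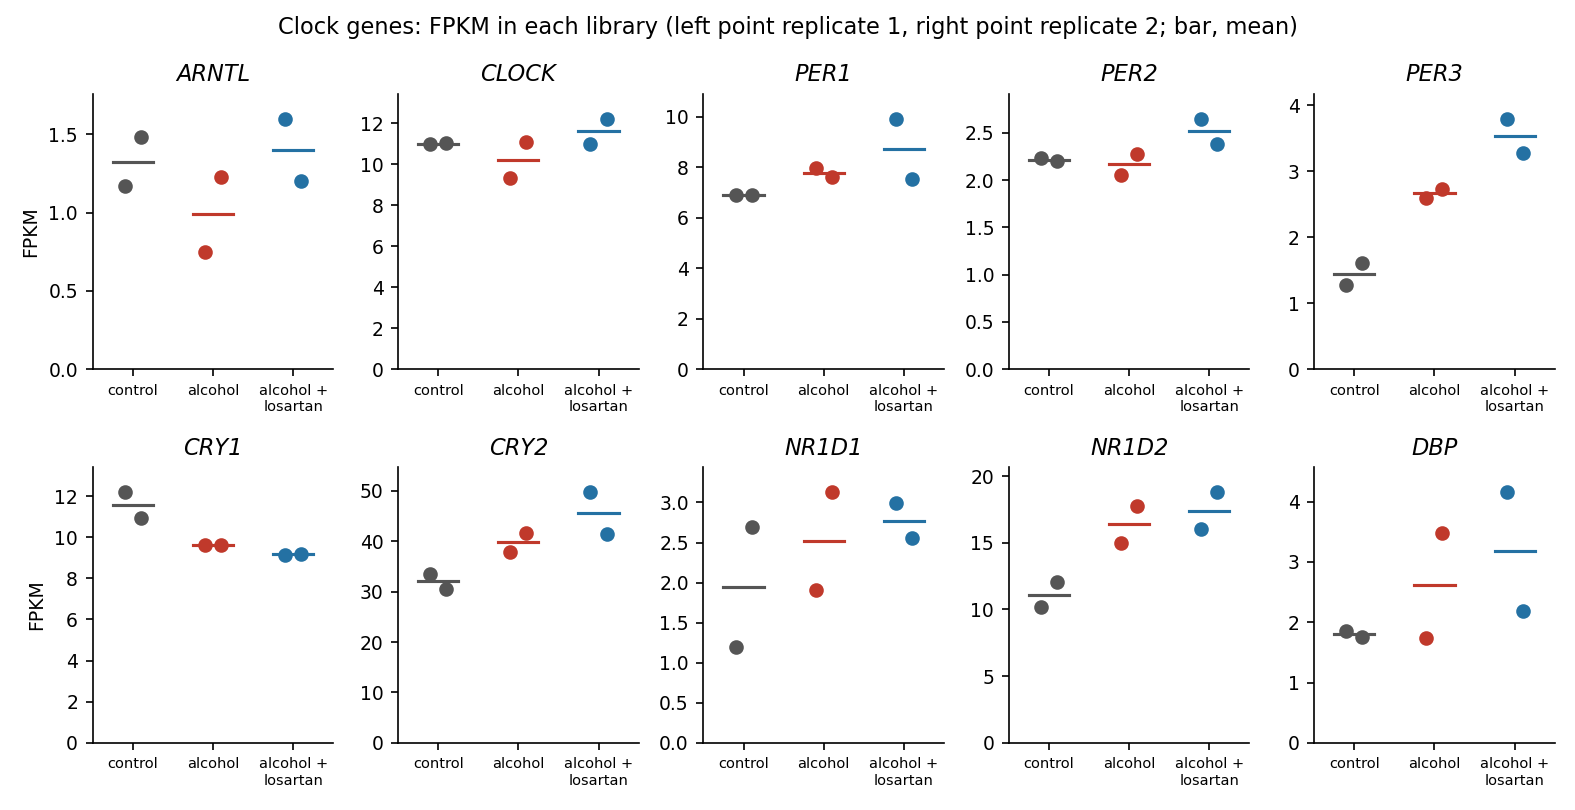
FPKM of the 10 clock genes in every library. Each panel is 1 gene with its own y axis in FPKM, points are single libraries (replicate 1 left, replicate 2 right) and bars are means of the 2 libraries of a group (control, alcohol, alcohol plus losartan). PER3 climbs from 1.27 and 1.61 in control to 3.80 and 3.28 in alcohol plus losartan, whereas the points of CLOCK and ARNTL overlap between groups.

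PER3 (NCBI Gene 8863) had the largest log2 fold change from control of the 10, with alcohol alone and with losartan added. It encodes a period protein, which acts beside PER1 and PER2 in the inhibiting arm. The gene spans chr1:7784320-7845177 on the plus strand (GRCh38, GENCODE 29). Its level was 1.27 and 1.61 FPKM in control, 2.60 and 2.73 in alcohol, and 3.80 and 3.28 in alcohol plus losartan, from 41 and 52, 84 and 85, and 118 and 105 counts. The 3 groups did not overlap: both control libraries were lowest and both losartan libraries highest. In alcohol plus losartan PER3 rose 2.36-fold over control, with a log2 fold change of 1.24 (SE 0.22, 95% interval 0.77 to 1.70, adjusted p = 0.0306 by edgeR's quasi-likelihood test over all genes tested). This was the only one of the 10 called at an adjusted p under 0.05 in any comparison, and in this one 0.362% of all genes were called and 0.214% were called as higher. In alcohol against control its log2 fold change was 0.84 (SE 0.22), with an unadjusted p of 0.00218 and an adjusted p of 0.171 by edgeR, so it was not called. Between the 2 alcohol groups it was 0.40 higher with losartan on the log2 scale, and the 95% interval of -0.04 to 0.83 included 0.

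The call of PER3 rested on few libraries. Its log2 fold change in alcohol plus losartan against control stayed between 0.90 and 1.41 over 14 alternatives, while the adjusted p ran from 0.0173 to 0.286 and was under 0.05 in 7 of them. Without control replicate 1 the adjusted p from edgeR was 0.137, without control replicate 2 0.0679, without alcohol plus losartan replicate 1 0.157 and without replicate 2 of that group 0.286. In GENCODE 29 the exons of PER3 share 868 bases, 10.7% of its exonic length, with UTS2 on the opposite strand, and 482 bases with the antisense gene Z98884.1. Whether strand was used in counting is not given in the sources used here. Neither gene was found by symbol in the series table, so reads from them cannot be told apart from PER3.

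The other period genes differed less. PER1, which glucocorticoids and other signals induce directly, was 6.91 and 6.89 FPKM in control, 7.95 and 7.59 in alcohol, and 9.92 and 7.53 in alcohol plus losartan. Both treated groups lay above control, and 1 losartan library lay below both alcohol libraries. The log2 fold change was 0.13 (SE 0.17) in alcohol and 0.29 (SE 0.16) in alcohol plus losartan against control, and neither was called. PER2, whose protein binds CRY proteins, was 2.23 and 2.20 FPKM in control, 2.05 and 2.28 in alcohol, and 2.65 and 2.38 with losartan. Its control and alcohol libraries overlapped, and the losartan libraries lay above all others. The log2 fold change of PER2 was 0.14 (95% interval -0.31 to 0.59) in alcohol plus losartan against control. Its expected counts were whole in 1 of 6 libraries, against 6 of 6 for every other member.

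The cryptochrome genes differed from control in opposite directions. CRY2 (NCBI Gene 1408), at chr11:45847118-45883248 on the plus strand, was 33.52 and 30.53 FPKM in control, 37.89 and 41.67 in alcohol, and 49.77 and 41.44 in alcohol plus losartan. Every treated library lay above both control libraries, and the treated groups overlapped. The log2 fold change was 0.27 (SE 0.12, unadjusted p = 0.0495, adjusted p = 0.449, edgeR) in alcohol and 0.46 (SE 0.12, unadjusted p = 0.00263, adjusted p = 0.129, edgeR) in alcohol plus losartan against control. CRY1 (NCBI Gene 1407), the stronger repressor of the pair at the E-box, lies at chr12:106991364-107093829 on the minus strand and was 12.20 and 10.93 FPKM in control, 9.64 and 9.63 in alcohol, and 9.15 and 9.21 with losartan. The groups did not overlap, with control highest. Its log2 fold change was -0.30 (SE 0.15, unadjusted p = 0.0697, edgeR) in alcohol and -0.38 (SE 0.15, unadjusted p = 0.0280, adjusted p = 0.323, edgeR) in alcohol plus losartan against control. Neither cryptochrome was called, and between the 2 alcohol groups their log2 fold changes were 0.19 for CRY2 (95% interval -0.08 to 0.46) and -0.08 for CRY1 (95% interval -0.41 to 0.26).

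In alcohol plus losartan against control the activators had the smallest log2 fold changes of the 10, 0.03 for CLOCK and 0.02 for ARNTL. CLOCK, the partner of ARNTL, was 10.98 and 11.02 FPKM in control, 9.34 and 11.08 in alcohol, and 11.00 and 12.22 with losartan. The 3 groups overlapped. The 95% interval of its log2 fold change was -0.23 to 0.30 in alcohol plus losartan against control, and in alcohol against control the log2 fold change was -0.14 (95% interval -0.41 to 0.12). ARNTL was 1.17 and 1.48 FPKM in control, 0.75 and 1.23 in alcohol, and 1.60 and 1.20 with losartan. All groups overlapped. The 95% interval of its log2 fold change was -0.91 to 0.94 in alcohol plus losartan against control, and in alcohol against control the log2 fold change was -0.46 (95% interval -1.42 to 0.51).

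In the second loop NR1D2 was higher in every treated library than in control, while NR1D1 could not be resolved. NR1D2 (NCBI Gene 9975) encodes REV-ERB beta, a nuclear receptor that binds heme and represses ARNTL, and it lies at chr3:23945260-23980618 on the plus strand. Its level was 10.19 and 12.05 FPKM in control, 14.99 and 17.80 in alcohol, and 16.01 and 18.81 with losartan. Both treated groups lay above control in every library and overlapped each other. The log2 fold change was 0.53 (SE 0.14, unadjusted p = 0.00215, adjusted p = 0.170, edgeR) in alcohol and 0.58 (SE 0.14, unadjusted p = 0.00100, adjusted p = 0.0896, edgeR) in alcohol plus losartan against control, and neither was called. Between the alcohol groups it was 0.05 (95% interval -0.24 to 0.35). NR1D1, the REV-ERB alpha gene, was 1.20 and 2.69 FPKM in control, 1.91 and 3.13 in alcohol, and 2.99 and 2.56 with losartan. The replicates of control differed more than the groups did. NR1D1 shares 263 exonic bases, 9.49% of its exons, with THRA on the opposite strand, which stood at 20.0 to 27.2 FPKM. Whether reads of THRA entered the counts of NR1D1 was not tested.

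DBP, a PAR bZIP factor, was 1.85 and 1.75 FPKM in control, 1.74 and 3.48 in alcohol, and 4.16 and 2.19 with losartan. Both losartan libraries lay above control, but the replicates of each treated group differed by more than the groups. Its log2 fold change in alcohol plus losartan against control was 0.76 (SE 0.45, 95% interval -0.20 to 1.73). DBP shares 661 exonic bases, 10.1% of its exons, with SPHK2 on the opposite strand, which stood at 1.37 to 3.56 FPKM.

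**Figure D3:**
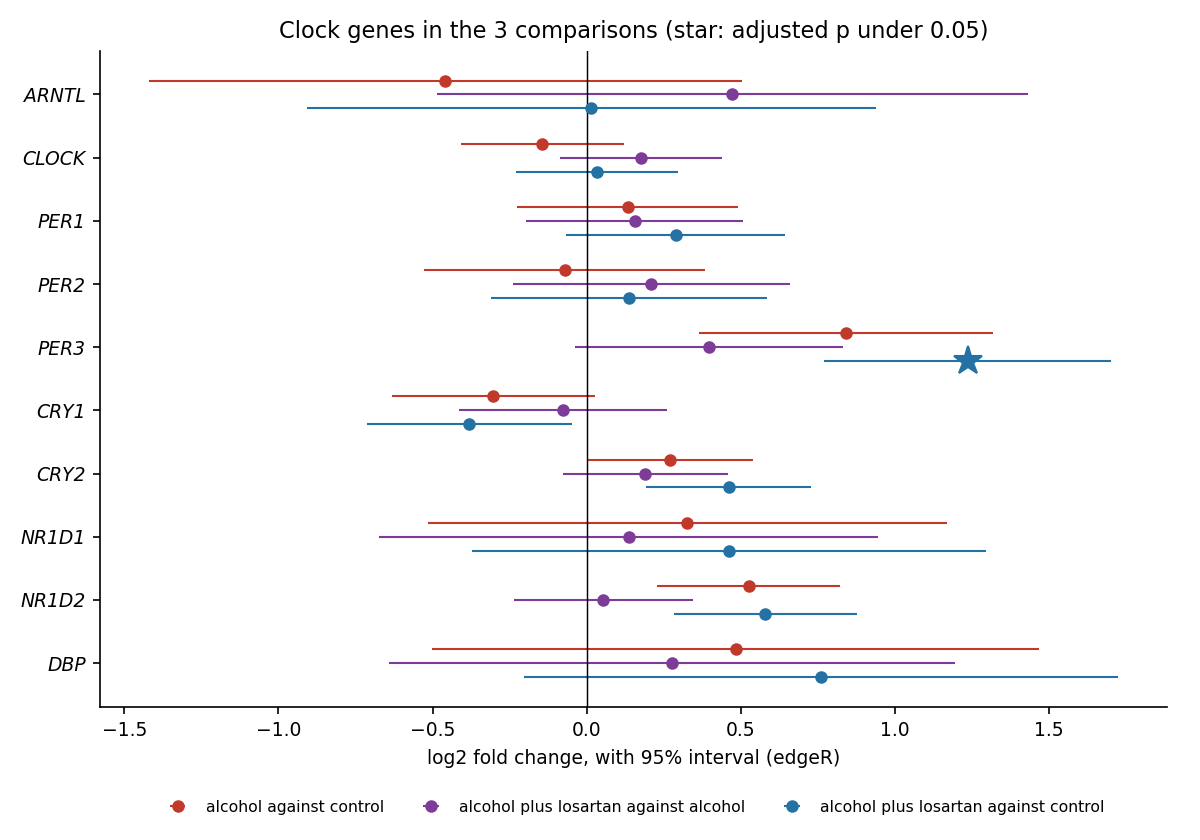
Log2 fold changes of the 10 clock genes in the 3 comparisons. The x axis is the log2 fold change from edgeR, points are estimates and lines are 95% intervals, with 1 colour for each comparison and a star where the adjusted p is under 0.05. The interval of PER3 in alcohol plus losartan against control (0.77 to 1.70) is the farthest from 0, and the intervals of ARNTL, NR1D1 and DBP are the widest.

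Across the members, alcohol against control gave 6 log2 fold changes above 0 and 4 below, where 49.4% of all genes tested were above 0. The median was 0.20 for the members and -0.0033 for all genes. None of the 10 was called by edgeR, where 0.0670% of all genes were. An unadjusted p under 0.05 was reached by 3 (PER3, CRY2 and NR1D2, all higher), where 11.0% of all genes reached it, and 5.27% were higher with it. DESeq2 gave an adjusted p for 3 of the 10 (CRY2, CLOCK and NR1D2) and called none of these. The 2 groups did not overlap in FPKM for 5 members (PER1, PER3, CRY2 and NR1D2 higher, CRY1 lower), against 42.4% of all genes (24.7% higher). Without alcohol replicate 2, the library with the lowest cardiomyocyte, smooth muscle and hypoxia-response sums, 2 members were left at an unadjusted p under 0.05 by edgeR, PER3 with a log2 fold change of 0.85 and NR1D2 with 0.44. Without alcohol replicate 1 the count was also 2, PER3 with 0.84 and NR1D2 with 0.62.

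For alcohol plus losartan against control, 9 log2 fold changes lay above 0 and 1 below, where 49.8% of all genes were above 0, and the median was 0.38 against -0.0017 for all genes. PER3 was the 1 member called. An unadjusted p under 0.05 by edgeR was reached by 4 members (PER3, CRY2 and NR1D2 higher, CRY1 lower), where 12.6% of all genes reached it and 6.26% were higher with it. The groups did not overlap for 7 members, 6 of them higher (PER1, PER2, PER3, CRY2, NR1D2 and DBP) and CRY1 lower, against 43.4% of all genes (27.1% higher). This comparison and the preceding one share their control libraries and are not independent of each other.

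Between alcohol plus losartan and alcohol alone no difference of a clock gene was detectable. No member was called by edgeR, where 0.0134% of all genes were, and no member had an unadjusted p under 0.05, where 5.55% of all genes did. DESeq2 called none. The groups did not overlap for 3 members (PER2 and PER3 higher, CRY1 lower), against 32.3% of all genes. The log2 fold changes lay above 0 for 9 members, where 50.3% of all genes did, and their median was 0.18. The intervals were wide enough to hold a change of 0.83 on the log2 scale for PER3 and 1.43 for ARNTL, so that equal expression was not shown either.

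**Figure D4:**
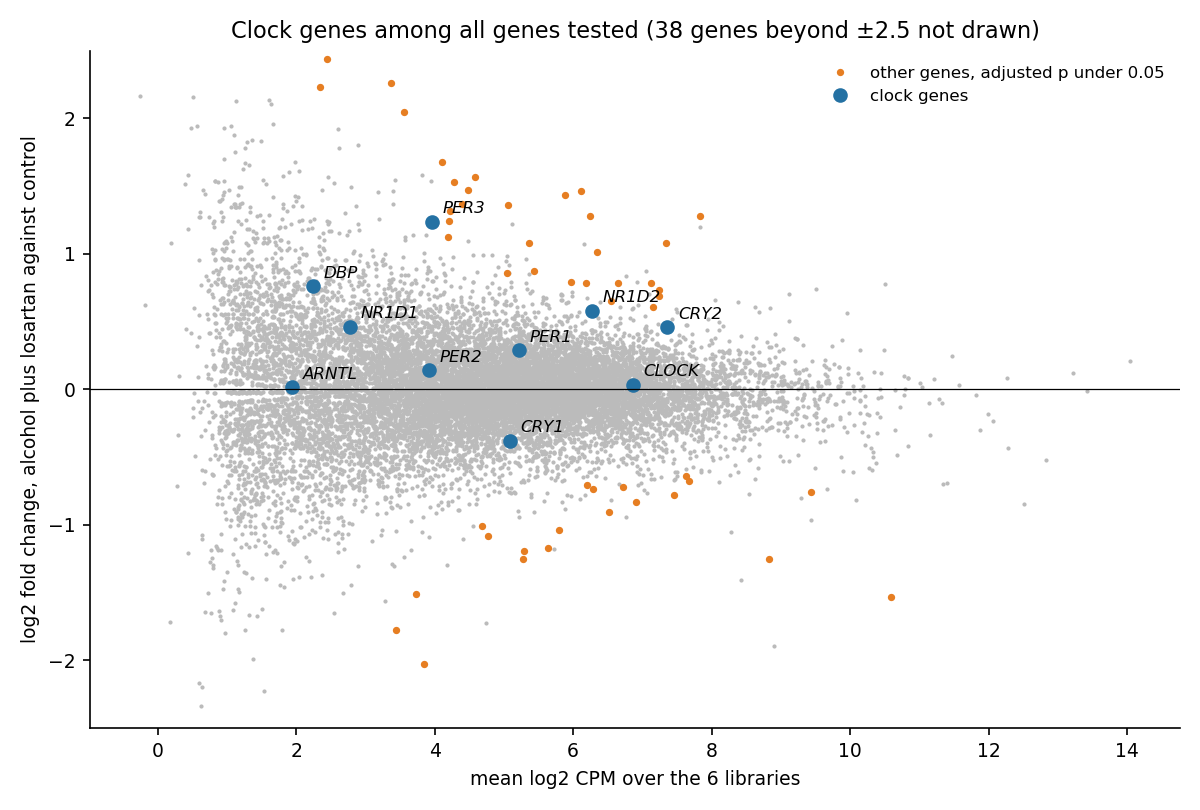
The clock genes among all genes tested in alcohol plus losartan against control. The x axis is the mean log2 CPM over the 6 libraries and the y axis the log2 fold change from edgeR; grey points are genes not called, orange points other genes called at an adjusted p under 0.05, and large blue points the 10 clock genes (38 genes beyond the y axis are not drawn). PER3, at 1.24, lies among the orange points, and the other 9 lie between CRY1 at -0.38 and DBP at 0.76.

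The wider clock pathway was read from a list of 21 further genes: paralogs of the activators, ROR receptors, E-box and D-box factors, kinases, ubiquitin ligase subunits, and corepressors and deacetylases. Of these 19 were listed in the table and 17 were tested. None was called in any comparison by edgeR. None had an unadjusted p under 0.05 in alcohol against control (11.0% of all genes did), and 2 did in alcohol plus losartan against alcohol (5.55%) and 2 against control (12.6%), with medians of -0.02, 0.05 and 0.02 for alcohol against control, alcohol plus losartan against alcohol, and alcohol plus losartan against control. The transcriptional repressor CIART, which acts on ARNTL and CLOCK, was 5.80 and 4.76 FPKM in control, 6.95 and 4.99 in alcohol, and 10.88 and 7.66 with losartan, a log2 fold change of 0.70 (SE 0.28, unadjusted p = 0.0245, adjusted p = 0.307, edgeR) over control. The 2 losartan libraries lay above all others. CSNK1E, a casein kinase that phosphorylates PER proteins for degradation, was 28.48 and 34.23, 30.45 and 37.13, and 27.53 and 19.09 FPKM, and was lower with losartan by a log2 fold change of -0.53 (SE 0.16, unadjusted p = 0.00622, adjusted p = 0.815, edgeR) against alcohol and of -0.46 (unadjusted p = 0.0142, edgeR) against control. RORA, the activator at ROR elements, was 2.97 and 1.52, 2.25 and 1.69, and 3.78 and 2.79 FPKM, and was 0.72 higher with losartan than with alcohol on the log2 scale (SE 0.28, unadjusted p = 0.0218, adjusted p = 0.857, edgeR). BHLHE40 (DEC1), an E-box repressor, differed more within groups than between them, at 331 and 164 counts in control, 352 and 122 in alcohol, and 336 and 244 with losartan.

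**Figure D5:**
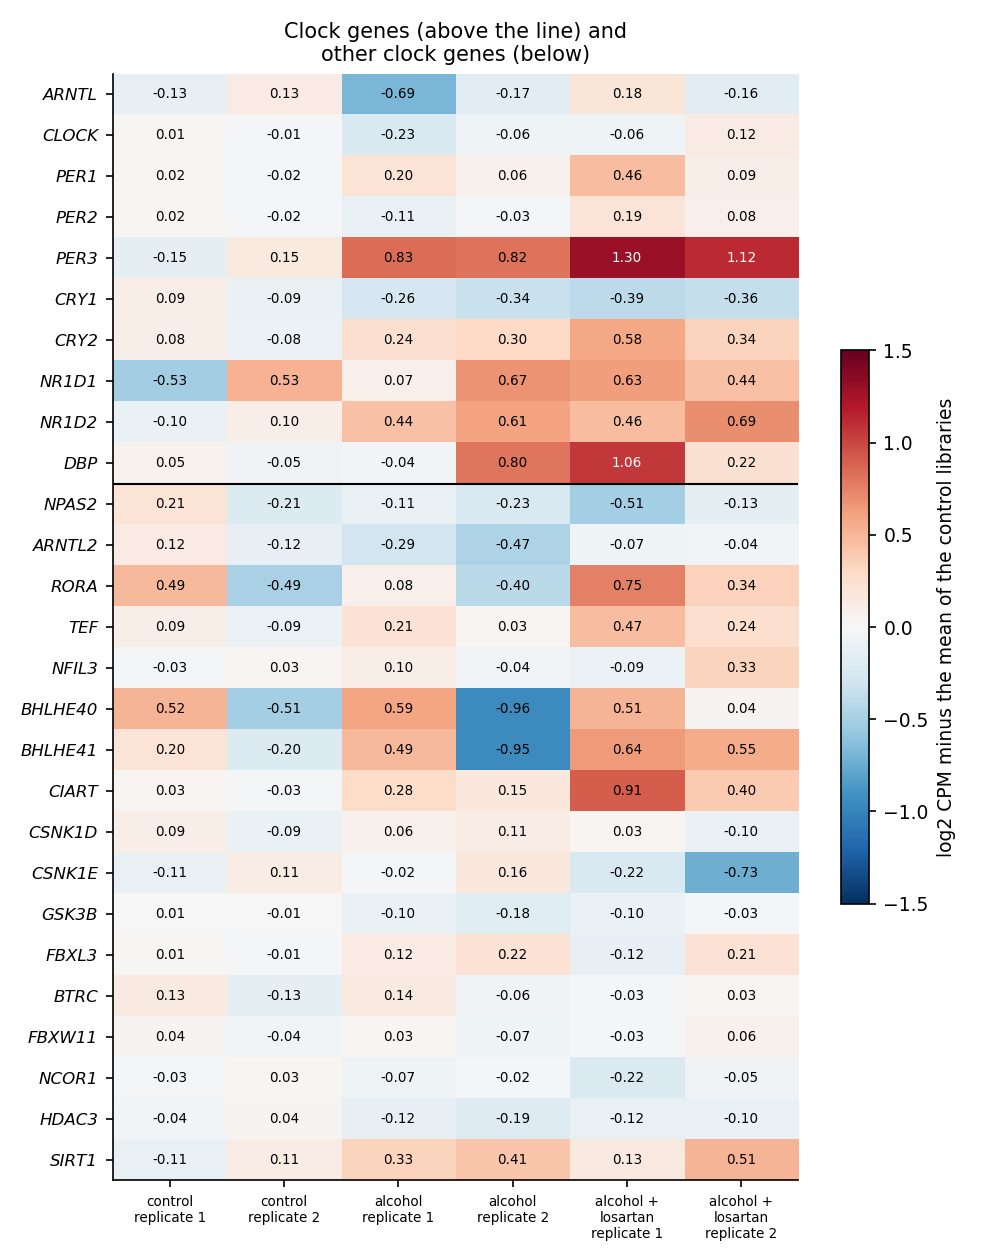
The 10 clock genes (above the line) and the 17 further clock genes tested (under it) in each library. Rows are genes, columns are libraries, and colour and printed value are log2 CPM minus the mean of the control libraries. PER3 reads 0.83 and 0.82 in alcohol and 1.30 and 1.12 in alcohol plus losartan, while NR1D1, DBP, RORA and BHLHE40 differ widely between replicates.

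Among 9 genes that the clock is known to drive, CDKN1A alone was called, in alcohol plus losartan against control, where 0.362% of all genes were. CDKN1A encodes the cell cycle inhibitor p21 and also answers p53, and it was 99.3 and 114.2 FPKM in control, 78.7 and 71.4 in alcohol, and 62.7 and 65.6 in alcohol plus losartan. The 3 groups did not overlap, with control highest. Its log2 fold change against control was -0.55 (SE 0.12, adjusted p = 0.121, edgeR) in alcohol and -0.78 (SE 0.12, adjusted p = 0.0203, edgeR) in alcohol plus losartan. Summed cycling markers were 86.2 and 158 FPKM in control, 63.1 and 80.1 in alcohol, and 134 and 106 with losartan, and their part in the result on CDKN1A was not tested. KLF10, a Krüppel-like repressor, was 7.72 and 7.28 FPKM in control, 9.87 and 8.02 in alcohol, and 11.18 and 13.12 with losartan, with a log2 fold change of 0.65 (SE 0.18, unadjusted p = 0.00336, adjusted p = 0.141, edgeR) over control in the last group. NAMPT, the rate-limiting enzyme of NAD salvage, had a log2 fold change of 0.40 and USP2, a deubiquitinase, one of -0.35 between the alcohol groups, with adjusted p of 0.848 and 0.853 by edgeR. The medians over the 9 genes were -0.02, -0.09 and -0.09 in the order of comparisons above.

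Lists of signals that are known to set PER genes were read beside the members. Of 6 glucocorticoid targets, none was called. In alcohol against control 5 were higher and 1 lower, and in alcohol plus losartan against control 4 were higher and 2 lower. An unadjusted p under 0.05 by edgeR was reached by 1, TSC22D3 (GILZ), in either comparison with control (11.0% and 12.6% of all genes). TSC22D3 was at 78.4 and 84.2 FPKM in control, 105.1 and 115.9 in alcohol, and 103.2 and 107.0 with losartan. Its log2 fold change was 0.42 in alcohol (SE 0.11, adjusted p = 0.179, edgeR) and 0.32 in alcohol plus losartan (adjusted p = 0.256, edgeR). Both treated groups lay above control and overlapped each other. Of 7 immediate early genes 5 were tested, and none had an unadjusted p under 0.05 in any comparison by edgeR. Of 12 hypoxia targets tested none was called. An unadjusted p under 0.05 by edgeR was reached by 4, all lower, in alcohol against control (11.0% of all genes), by 8, all higher, in alcohol plus losartan against alcohol (5.55%), and by 1 higher and 2 lower in alcohol plus losartan against control (12.6%). Their median log2 fold change was -0.40 in alcohol against control, 0.64 in alcohol plus losartan against alcohol and 0.06 in alcohol plus losartan against control. The part of these signals in the levels of the clock genes was not tested.

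The genes with the pattern most like PER3 were named by Pearson's r of log2 CPM over the 6 libraries. These were TRIM4 (r = 0.998), GUSBP4 (0.992), PLTP (0.991), TRANK1 (0.989) and NPTN-IT1 (0.986). TRIM4 was 0.45 and 0.56 FPKM in control, 1.00 and 1.03 in alcohol, and 1.33 and 1.16 with losartan. In all, 226 of the 14925 other genes had an r over 0.9, which describes 6 libraries in 3 groups and carries no test. None of the 5 named genes was called in alcohol plus losartan against control, with adjusted p of 0.0782 to 0.304 by edgeR.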

How the data were processed

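RNA of hiPSC-CMs of the H9 line was sequenced in 6 libraries, grouped by the treatment in the labels. For every gene the authors deposited an expected count, an estimate of its reads, and an FPKM, which scales that estimate to gene length and library size. The submitters' processing notes name HISAT2 2.0.4, Bowtie2 2.2.5, RSEM 1.2.12 and hg38, with no role given. Expected counts were rounded for the test (33.9% of those above 0 were not whole). Genes absent from a library's own table were set to 0.

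Differences were tested two-sided with edgeR 4.0.16 in R 4.3.3 (quasi-likelihood F test, TMM, filterByExpr). One fit held all 6 libraries, and p was adjusted by Benjamini-Hochberg over 14926 genes, with calls at 0.05. SE was taken from the log2 fold change and its F value. Groups were said not to overlap where both libraries of one lay beyond both of the other in FPKM. An exact permutation test of 2 against 2 libraries cannot go below 0.333 and was not used. The labels do not say whether replicates are separate cultures, so p-values measure the spread between libraries, which may be technical. Floors cover counting error only.

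Replicates correlated at 0.975 to 0.978 on log2 CPM and differed beyond sampling noise (chi-square per degree of freedom of 4.64 to 7.62), so no pair was treated as 1 library deposited more than once. The test was checked on simulated counts of 14713 genes, 194 of them changed in alcohol plus losartan against control. It called 94.4% of genes changed by 2 on the log2 scale and 66.3% of those changed by 1, with 15 false calls. Smaller changes were not simulated. Counts were drawn independently for each gene and library with the spread fitted to these data. Shifts shared by many genes of a library were therefore not simulated either. Alternatives were DESeq2 1.42.0, RLE size factors, dropping the filter, asking for 10 counts or more in all libraries, a replicate block, fits of the compared groups alone, limma 3.58.1 on log2(FPKM + 1) or log2(FPKM + 0.1), and leaving out each library.

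The members and lists were chosen with earlier results of these data known. Named beyond the members were clock-related list genes with an unadjusted p under 0.05, some cell type markers and the 5 genes most like PER3. The markers MYL7, NPPA, KDR, PECAM1 and SOX2 were picked from their lists by no rule set beforehand. TNNT2, VWF, BHLHE40 and overlapping genes were chosen after their values were seen. Start windows came from RefSeq (GRCh38.p14), and gene positions and overlaps from GENCODE 29.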

Additional observations from a re-analysis of the deposited data

How the results depend on the processing

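Over 14 alternatives, 393 of the 413 recomputed log2 fold changes of the members that had an adjusted p kept their direction and their side of the threshold; DESeq2 gave none for 7 members in alcohol against control. PER3 in alcohol plus losartan against control lost its call without the expression filter (adjusted p = 0.0613), with limma on log2(FPKM + 1) (0.131) and log2(FPKM + 0.1) (0.148) and when any 1 of the control or losartan libraries was left out; the cause was not tested. The replicate numbers share only a number (correlation of deviations 0.114 for alcohol and control, 0.041 for the alcohol groups, -0.016 for losartan and control); with the replicate block NR1D2 was called in alcohol plus losartan against control (adjusted p = 0.0453, edgeR), so that 2 members were. Members called there were 0 without the filter and by limma on either scale, and 0 to 1 with a library left out. The 12 reversals of log2 fold changes all came with a library left out. In alcohol against control NR1D1 ran from -0.12 to 1.02 (-0.02 the other reversal) and DBP from -0.045 to 0.88. Between the alcohol groups PER1 ran from -0.039 to 0.33, NR1D1 from -0.16 to 0.49, NR1D2 from -0.072 to 0.17 (-0.04 the other) and DBP from -0.24 to 0.81 (-0.12 the other). In alcohol plus losartan against control ARNTL ran from -0.18 to 0.19 (-0.12 the other) and CLOCK from -0.062 to 0.12. The number of all genes called in alcohol against control (10) was 68 with DESeq2, 2 without a filter, 26 with at least 10 counts, 48 with the block, 3 with only the groups compared, 0 and 2 with limma (1 and 0.1 added), and 1 to 220 with a library left out. Between the alcohol groups (2) it was 5 with DESeq2, 1 without a filter, 0 with at least 10 counts, 5 with the block, 4 with only the groups compared, 1 with limma (1 added) and 1 to 24 with a library left out. In alcohol plus losartan against control (54) it was 113 with DESeq2, 15 without a filter, 136 with the block, 158 with only the groups compared, 2 and 3 with limma, and 2 to 184 with a library left out. ARNTL, NR1D1 and DBP rested on 11 to 43 counts a library.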
